A study of Mus musculus with 20 samples.

Results

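The Vgll, Tead and Yap genes encode transcription cofactors and the DNA-binding partners they act through. Their mRNA was examined here in ventricles of mice with a deletion of the de novo DNA methyltransferases in cardiomyocytes. The genes were the vestigial-like cofactors Vgll2, Vgll3 and Vgll4, the TEA domain factors Tead1, Tead2, Tead3 and Tead4, and the coactivators Yap1 and Wwtr1 (the gene for TAZ). They were taken by symbol, and every probe annotated to 1 of these 9 genes was used, which gave 20 of the 45281 probes on the arrays. The array symbol Taz names tafazzin, another gene, and was not used. The family was chosen by the measured values of Vgll2, which had been called in an earlier comparison of knockout with control hearts after aortic constriction, so its values in that comparison are given as a description.

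All mice carried floxed Dnmt3a and floxed Dnmt3b alleles on both chromosomes (Dnmt3a flox/flox, Dnmt3b flox/flox). Double knockout (DKO) mice also carried the MLCCre transgene, in which Cre recombinase is driven by the promoter of Myl7, a myosin light chain gene of cardiomyocytes that in the adult is chiefly atrial, and control (CTL) mice lacked Cre. The deletion was therefore directed at cardiomyocytes, and the other cells of the ventricle were meant to keep both genes. The authors place the onset of Cre early in cardiac development. They report recombination in most, though not all, of the sorted cardiomyocyte nuclei. Male mice of 10 to 12 weeks underwent transverse aortic constriction (TAC), which puts the left ventricle under pressure overload, or a sham procedure, and ventricular tissue was taken 4 weeks later, at 14 to 16 weeks. Illumina bead arrays were made with 1 array per mouse, for 4 CTL and 4 DKO mice after the sham procedure and for 6 CTL and 6 DKO mice after TAC, and the arrays are numbered within each group.

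TEAD proteins bind the sequence CATTCC, known in muscle genes as the MCAT element, but activate transcription only with a partner. The partners YAP1 and TAZ are held in the cytoplasm when the Hippo kinases phosphorylate them, and in the heart they are known for their part in cardiomyocyte growth and in the response to injury. Vestigial-like proteins bind the same face of TEAD. VGLL2 is known from skeletal muscle and its differentiation, VGLL3 from muscle and fibroblasts, and VGLL4 as a repressor that competes with YAP1. Arrays measure the mRNA of these genes and not the location or phosphorylation of the proteins.

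Promoter sequence is shown for the 2 genes on which the results turn, since DNA methyltransferases act on the CG dinucleotide and TEAD factors on the MCAT core. The sequences are those of RefSeq on mouse build GRCm38.p6 and cover the 250 bases before the annotated start, written 5′ to 3′ along the gene. Capitals mark CG dinucleotides in the Vgll2 sequence, from chr10:52022252-52022501 on the plus strand, and the MCAT core on either strand in the Wwtr1 sequence, from chr3:57575911-57576160 on the minus strand.
Vgll2: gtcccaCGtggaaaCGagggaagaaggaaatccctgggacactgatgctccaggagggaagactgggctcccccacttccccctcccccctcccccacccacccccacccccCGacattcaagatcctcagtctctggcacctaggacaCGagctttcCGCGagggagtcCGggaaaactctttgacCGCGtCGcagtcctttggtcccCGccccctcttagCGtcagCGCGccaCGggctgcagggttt
Wwtr1: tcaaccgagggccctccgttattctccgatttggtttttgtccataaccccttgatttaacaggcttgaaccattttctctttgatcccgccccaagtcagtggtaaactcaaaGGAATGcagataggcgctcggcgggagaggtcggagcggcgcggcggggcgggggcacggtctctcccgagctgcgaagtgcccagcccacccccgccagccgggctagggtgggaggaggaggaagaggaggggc
The Vgll2 stretch held 15 CG dinucleotides, more than 72.7% of the 32851 mouse promoters of this length, and held no CATTCC or GGAATG, the core read on the other strand. The Wwtr1 stretch held 18 CG dinucleotides and 1 core, written as GGAATG, at position -136 relative to the start. A second annotated Wwtr1 start shared that core. CATTCC or GGAATG was also present before a start of Vgll3, Vgll4, Tead3 and Yap1, so that 5 of the 7 listed genes with a promoter entry held it, against 14.4% of all genes. No promoter entry was used for Tead1 or Tead4. Methylation was not measured on these arrays, and a match of letters describes the sequence only.

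Probe brightness was read against a background level, the 95th percentile on each array of 1542 probes for odorant, vomeronasal and taste receptors, which ran from 57.7 to 68.2 intensity units. Of the 20 probes, 7 lay above this level on all arrays, 6 on none and 7 on some. All 8 cardiomyocyte markers lay above it on every array. Sham CTL array 2 stood apart through skeletal muscle markers, with a mean log2 level 2.06 above the mean of all arrays, against -0.47 to 0.12 on the other arrays. TAC DKO arrays 2 and 3 stood apart through atrial markers, at 1.35 and 2.06, against 0.04 to 0.36 on the other TAC DKO arrays. The 3 Dnmt3a probes lay at background, above it on 1 of 20 arrays at most, and the brightest Dnmt3b probe showed a DKO minus CTL log2 difference of -0.15 in sham hearts (adjusted p = 0.924, limma). Where these probes lie relative to the deleted exons is not given in the sources used here, so they do not check the knockout. The authors checked it in sorted cardiomyocytes, where mRNA of the deleted Dnmt3a exon was nearly gone in DKO mice. They found Dnmt3b too close to the detection limit to show a further loss. The sham and the TAC arrays had been normalized by the authors as separate sets, with medians of 47.5 and 58.6, so surgery and the processing of the set cannot be told apart in any comparison of TAC with sham.

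Vgll2 was brighter in DKO than in CTL hearts on 2 of its 3 probes, in sham and in TAC hearts, and on these 2 probes the arrays spread widely within 3 of the 4 groups. On probe 1 (ILMN_2909248), normalized intensities in sham CTL hearts were 53.3, 50.6, 45.3 and 48.8, and those in sham DKO hearts were 63.4, 88.5, 72.3 and 130.5. All 4 sham CTL arrays lay under the background level and all 4 sham DKO arrays above it, so the groups did not overlap. In TAC CTL hearts the intensities were 104.3, 57.9, 70.1, 54.7, 54.6 and 48.7, and in TAC DKO hearts 292.8, 102.4, 82.4, 302.4, 195.7 and 87.1. Only TAC CTL arrays 1 and 3 lay above background, array 1 reached into the range of the DKO group, and TAC DKO arrays 1, 4 and 5 lay above every other array of the study.

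Probe 2 (ILMN_2495753) gave a like order. Its intensities were 49.3, 56.4, 46.4 and 46.0 in sham CTL and 62.8, 100.7, 84.0 and 126.5 in sham DKO hearts. In TAC hearts they were 79.2, 55.6, 61.5, 59.5, 43.8 and 44.7 in CTL and 224.4, 88.5, 80.3, 227.7, 186.4 and 89.1 in DKO mice. On this probe CTL and DKO arrays did not overlap after either procedure, and TAC DKO arrays 1, 4 and 5 were again the highest. Across the 20 arrays, which share the group structure, the log2 values of probes 1 and 2 correlated with r = 0.98. Probe 3 (ILMN_2429680) stayed between 47.0 and 72.1 on all arrays, at or near background, and correlated with probe 1 with r = 0.22.

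**Figure D1:**
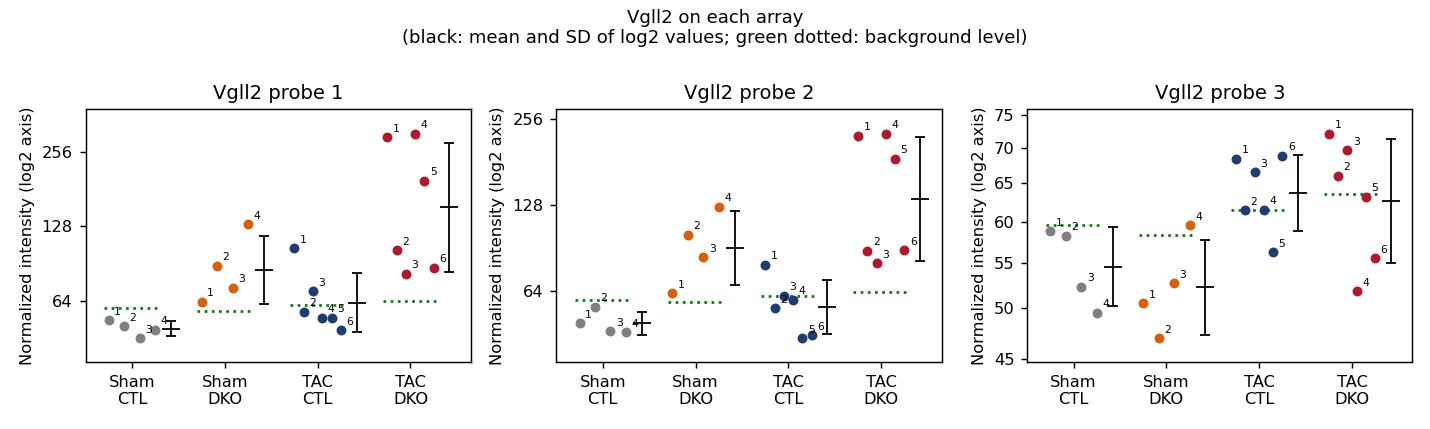
Normalized intensity (log2 axis) of the 3 Vgll2 probes on each array, with points numbered by replicate, black bars for the mean and SD of the log2 values (n = 4 per sham group, n = 6 per TAC group) and green dotted lines for the mean background level of the group. On probes 1 and 2 the sham CTL arrays lie under the background line, the sham DKO arrays above it, and TAC DKO arrays 1, 4 and 5 above all others, whereas probe 3 stays between 47.0 and 72.1.

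Vgll2 was chosen by its difference between TAC groups, and the genotype difference was also tested between the sham groups. The sham arrays were not wholly apart from that choice, since they entered the estimate of the spread behind the TAC call, and in a fit on the TAC groups alone neither probe was called (adjusted p = 0.144 and 0.0606). The log2 difference between DKO and CTL sham hearts was 0.79 (SE 0.34, 95% interval 0.08 to 1.5) on probe 1, 0.88 (SE 0.29, 0.27 to 1.48) on probe 2 and -0.06 (-0.27 to 0.14) on probe 3. Since the sham CTL arrays were not above background, probes 1 and 2 are also set against the background level. The sham DKO mean was 1.43-fold and 1.52-fold that level. These folds carry no sampling error and are no lower limit, since the 95% intervals reach down to log2 differences of 0.08 and 0.27. In a two-sided exact permutation test of the 4 against 4 arrays probes 1 and 2 gave p = 0.0286, and probe 3 gave p = 0.571. The former is the smallest value this design allows. Every probe with its 4 DKO values all on 1 side of its 4 CTL values gets it, which held for 3.89% of all probes. Given how the gene was chosen, this p is a description. Probes 1 and 2 read the same gene on the same arrays, so they are not 2 independent results. In the limma fit over all 45281 probes neither difference passed, with adjusted p-values of 0.860 and 0.677, and both remained uncalled in all 30 alternative settings. Without sham CTL array 2 the differences were 0.79 and 0.93.

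The mean level of 7 atrial markers was higher on all sham DKO than on all sham CTL arrays, though single markers went both ways. Their mean log2 level relative to all arrays was -0.88 to -0.74 in sham CTL and -0.47 to 0.15 in sham DKO hearts. In the limma fit 0 of 7 markers were called, where 0.102% of all probes were. At an unadjusted p under 0.05 there were 2 of 7, where 5.55% of all probes were. Over the 7 markers the DKO minus CTL log2 difference in sham hearts ran from -0.11 to 2.86, with a median of 0.45. Of the 7, 3 lay above background on all arrays of the study. Myl7 and Sln, which are on this list, lay between 38.2 and 62.9 on the sham arrays, at or near background. The part of atrial RNA in the Vgll2 difference was not tested. In whole tissue, fewer cells of a type and less RNA per cell cannot be told apart.

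After TAC the log2 difference between DKO and CTL hearts was 1.28 (SE 0.28) on probe 1, 1.26 (SE 0.24) on probe 2 and -0.02 (SE 0.08) on probe 3. This is the comparison that chose the gene, and no test is read from it. Probe 1 lay just inside the threshold for a call, with an adjusted p of 0.0445 against 0.05. TAC DKO arrays 2 and 3, which stood apart through atrial markers, were among the 3 lower arrays of their group for Vgll2. Without them the differences were 1.66 and 1.62, a rise that leaving out lower arrays brings by itself. Between the TAC groups 0 of 7 atrial markers were called by limma, where 0.144% of all probes were. At an unadjusted p under 0.05 there were 3, where 8.99% of all probes were. Their log2 differences ran from 0.00 to 2.05, with a median of 0.35. The part of atrial RNA in the difference after TAC was not tested. The TAC minus sham differences of probe 1 were 0.35 (SE 0.31) in CTL and 0.84 (SE 0.31) in DKO hearts, and those of probe 2 were 0.19 (SE 0.27) and 0.58 (SE 0.27). These differences share the TAC arrays that chose the gene, and those of CTL hearts start from a sham group at background, so no change of the genotype difference with TAC is read from them.

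On Vgll2 probe 1 the arrays spread more than on most probes in sham DKO, TAC CTL and TAC DKO hearts. The ranks below are against all probes, those at background included, and probes of like brightness were not compared. The SD of the log2 values on probe 1 was 0.87 in TAC DKO hearts, larger than that of 99.96% of all probes in this group, for which the median SD was 0.117. It was 0.45 in sham DKO and 0.40 in TAC CTL hearts, larger than that of 99.6% and 99.3% of probes. In sham CTL hearts, where the probe was at background, it was 0.099, larger than that of 41.9% of probes. On probe 3 the SD was larger than that of 51.2% of probes in TAC CTL hearts and 84.3% in TAC DKO hearts. The TAC arrays are those that chose the gene.

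The genes whose brightest probe followed Vgll2 probe 1 most closely over the 20 arrays, among 10432 genes whose mean over all arrays was above background, were Slc1a1 (r = 0.88), a glutamate transporter, Rab33a (r = 0.86), a small GTPase of vesicle traffic, Cdc25a (r = 0.86), a cell cycle phosphatase, Rgs6 (r = 0.85), a regulator of G protein signalling, and Bin1 (r = 0.85), which shapes T-tubule membranes in muscle. These values are descriptions over arrays that share the 4 groups. Rab33a lay under background on all sham CTL arrays, at 43.1 to 48.3, with means of 55.1 in sham DKO and 54.4 in TAC CTL hearts, and passed the filter through TAC DKO hearts (mean 77.1), where Vgll2 was also highest. Slc1a1 ran from 85.5 to 89.4 in sham CTL, from 98.6 to 120.0 in sham DKO, from 82.0 to 120.8 in TAC CTL and from 95.3 to 196.2 in TAC DKO hearts. Rgs6 did not overlap between genotypes, with 80.6 to 102.1 against 118.0 to 139.0 in sham and 93.3 to 116.0 against 135.5 to 169.8 in TAC hearts. Bin1 overlapped between genotypes in sham hearts, at 101.5 to 129.2 in CTL and 101.3 to 124.2 in DKO mice, and separated after TAC, at 103.3 to 138.4 against 156.2 to 264.2. Of the listed cofactors Vgll3 (r = 0.63), Yap1 (r = 0.47) and Tead1 (r = 0.37) were the most alike.

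Vgll3 showed no genotype difference that passed in either sham or TAC hearts, and it was brighter on TAC than on sham arrays. Its brightest probe (ILMN_1220029) gave 86.3, 80.0, 66.4 and 70.9 in sham CTL and 78.2, 78.5, 89.4 and 66.0 in sham DKO hearts. After TAC it gave 108.4, 78.7, 108.5, 99.6, 94.7 and 87.5 in CTL and 116.1, 127.8, 97.8, 149.0, 108.6 and 81.8 in DKO hearts. In each genotype 5 of the 6 TAC arrays lay above all sham arrays of that genotype. The TAC minus sham log2 difference was 0.34 (SE 0.13, adjusted p = 0.0615) in CTL and 0.52 (SE 0.13, adjusted p = 0.00331) in DKO hearts, and the latter, at 1.44-fold, stayed under the fold of 1.5 that a call required. When each array was centred on its median instead, these values were 0.11 and 0.27. The other 2 Vgll3 probes lay under background on every array.

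Vgll4, the repressor among the vestigial-like genes, was measured by 1 probe that ran from 60.0 to 95.8 and lay above background on 17 of 20 arrays. Its genotype differences were 0.05 (95% interval -0.19 to 0.30) in sham and 0.11 (-0.09 to 0.31) after TAC. TAC minus sham differences were -0.18 in CTL (adjusted p = 0.266) and -0.12 in DKO hearts (adjusted p = 0.460).

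**Figure D2:**
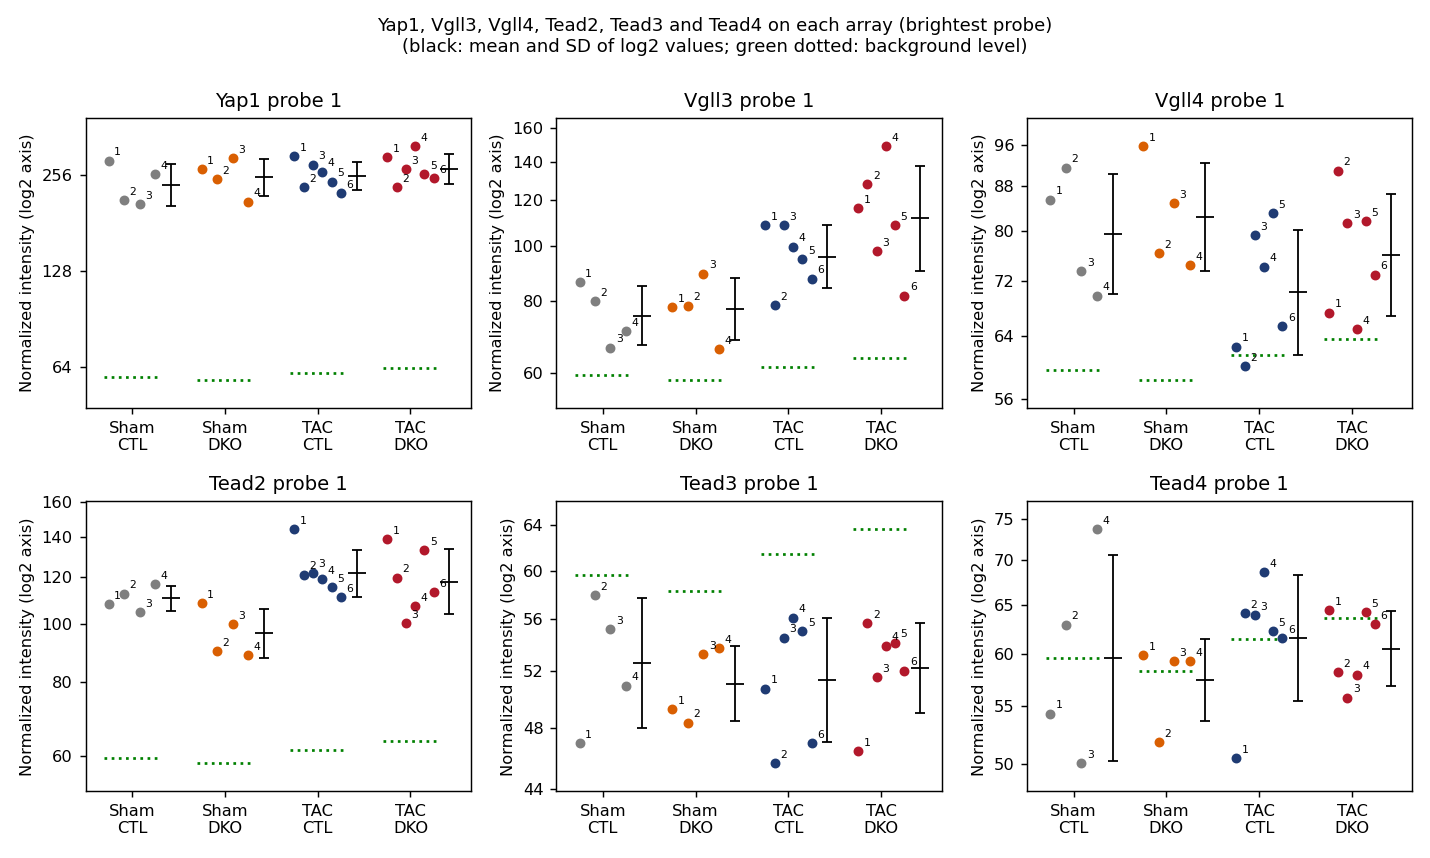
Normalized intensity (log2 axis) on each array of the brightest probe of Yap1, Vgll3, Vgll4, Tead2, Tead3 and Tead4, with points numbered by replicate, black bars for the mean and SD of the log2 values (n = 4 per sham group, n = 6 per TAC group) and green dotted lines for the mean background level. Yap1 runs from 207.1 to 315.7 with all groups overlapping, for Vgll3 5 of the 6 TAC arrays of each genotype lie above all sham arrays of that genotype, and Tead3 stays under the background line on all 20 arrays.

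Among the TEAD genes only Tead1, known as the main TEAD of the heart, passed the test with its full threshold, and only between TAC and sham arrays. On probe 2 (ILMN_1218956) sham CTL hearts gave 437.7, 413.7, 422.7 and 266.0 and sham DKO hearts 353.0, 342.9, 339.3 and 328.2. TAC CTL hearts gave 642.5, 645.4, 581.6, 557.5, 495.0 and 515.1 and TAC DKO hearts 770.0, 684.5, 658.0, 792.7, 549.2 and 466.5. Every TAC array lay above every sham array of the same genotype. Tead1 rose 1.51-fold in CTL (log2 0.59, SE 0.14, adjusted p = 0.00233) and 1.89-fold in DKO hearts (log2 0.92, SE 0.14, adjusted p = 1.65e-05), and the difference between both effects was 0.32 (95% interval -0.08 to 0.72).

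The Tead1 call in CTL hearts was lost in 7 of 30 alternative settings and that in DKO hearts in 1. With each array centred on its median the differences were 0.12 (adjusted p = 0.584) and 0.43 (adjusted p = 0.0174), both under the fold threshold. In CTL hearts the call was also lost without sham CTL array 4, the lowest of its group, at 0.42, and without TAC CTL array 1 or 2, at 0.56 each. Probe 1 (ILMN_1252402) ran from 1000.6 to 1282.4 in sham and from 1253.8 to 1751.6 in TAC hearts and gave 0.35 (adjusted p = 0.00391) and 0.44 (adjusted p = 0.000286), both under the fold of 1.5, and its sign turned with median centring, to -0.13 and -0.03. Probe 3 lay under background on every array.

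Tead2, a TEAD gene best known from the embryo, ran from 88.5 to 116.6 on the sham and from 100.3 to 144.1 on the TAC arrays. Its TAC minus sham difference was 0.14 (SE 0.09, adjusted p = 0.284) in CTL hearts. It was higher after TAC in DKO hearts by 0.29 (SE 0.09, adjusted p = 0.0147), under the fold threshold, and the latter value became -0.02 with median centring. Its sham DKO minus CTL difference was -0.20 (95% interval -0.39 to 0.00, adjusted p = 0.894). Tead3, known from the placenta, lay under background on all 20 arrays. Tead4, a regulator of myogenic differentiation, had 4 probes, of which 2 lay under background on every array and 2 above it on some, and none passed in any comparison.

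The coactivator Yap1 did not pass in any comparison, whereas probe 1 of its paralogue Wwtr1 fell after TAC in both genotypes. Yap1 (ILMN_1248293) ran from 207.1 to 288.7 on the sham and from 224.5 to 315.7 on the TAC arrays. Its genotype differences were 0.08 (95% interval -0.15 to 0.32) in sham and 0.07 (-0.12 to 0.27) in TAC hearts. The TAC minus sham differences were 0.10 (-0.12 to 0.31) in CTL and 0.09 (-0.13 to 0.30) in DKO hearts, but with median centring they were -0.37 (adjusted p = 0.00887) and -0.39 (adjusted p = 0.00625), so the direction relative to sham was not settled.

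Wwtr1 probe 1 (ILMN_1219016) gave 966.1, 981.8, 880.2 and 1395.8 in sham CTL and 1030.3, 996.5, 955.6 and 1158.7 in sham DKO hearts. After TAC it gave 401.4, 444.1, 511.8, 537.9, 555.6 and 539.6 in CTL and 457.4, 410.8, 370.3, 432.1, 506.1 and 504.0 in DKO hearts. All 12 TAC arrays lay below all 8 sham arrays. The signal fell 2.10-fold in CTL (log2 -1.07, SE 0.12, adjusted p = 3.41e-07) and 2.33-fold in DKO hearts (log2 -1.22, SE 0.12, adjusted p = 3.58e-08), and it was called lower in all 30 alternative settings, with log2 differences of -1.55 to -0.93 and -1.70 to -1.12. Genotype differences were -0.01 (95% interval -0.27 to 0.25) in sham and -0.16 (-0.37 to 0.06) in TAC hearts.

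The other 2 Wwtr1 probes moved the opposite way. Probe 2 (ILMN_2732998) ran from 62.4 to 87.9 on sham and from 72.1 to 106.4 on TAC arrays, and was higher after TAC by 0.34 (adjusted p = 0.0118) in CTL and 0.44 (adjusted p = 0.00127) in DKO hearts. Probe 3 (ILMN_2732997) ran from 55.5 to 68.0 and from 72.7 to 85.6 without overlap, and was higher by 0.35 (adjusted p = 0.000226) and 0.37 (adjusted p = 9.43e-05). These differences stayed under the fold of 1.5, and both probes were close to background in sham hearts, probe 3 being above it on 18 of the 20 arrays. The signs of all 3 probes stayed as given in all 30 alternative settings. Among 9172 genes with several probes, 4327 had a probe at an adjusted p under 0.05 for TAC in CTL hearts, and 10.9% of these had such probes in both directions. In DKO hearts the share was 13.7% of 5251 genes, and no gene had such probes in both directions in the genotype comparisons. A direction for Wwtr1 mRNA as a whole is therefore not given.

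**Figure D3:**
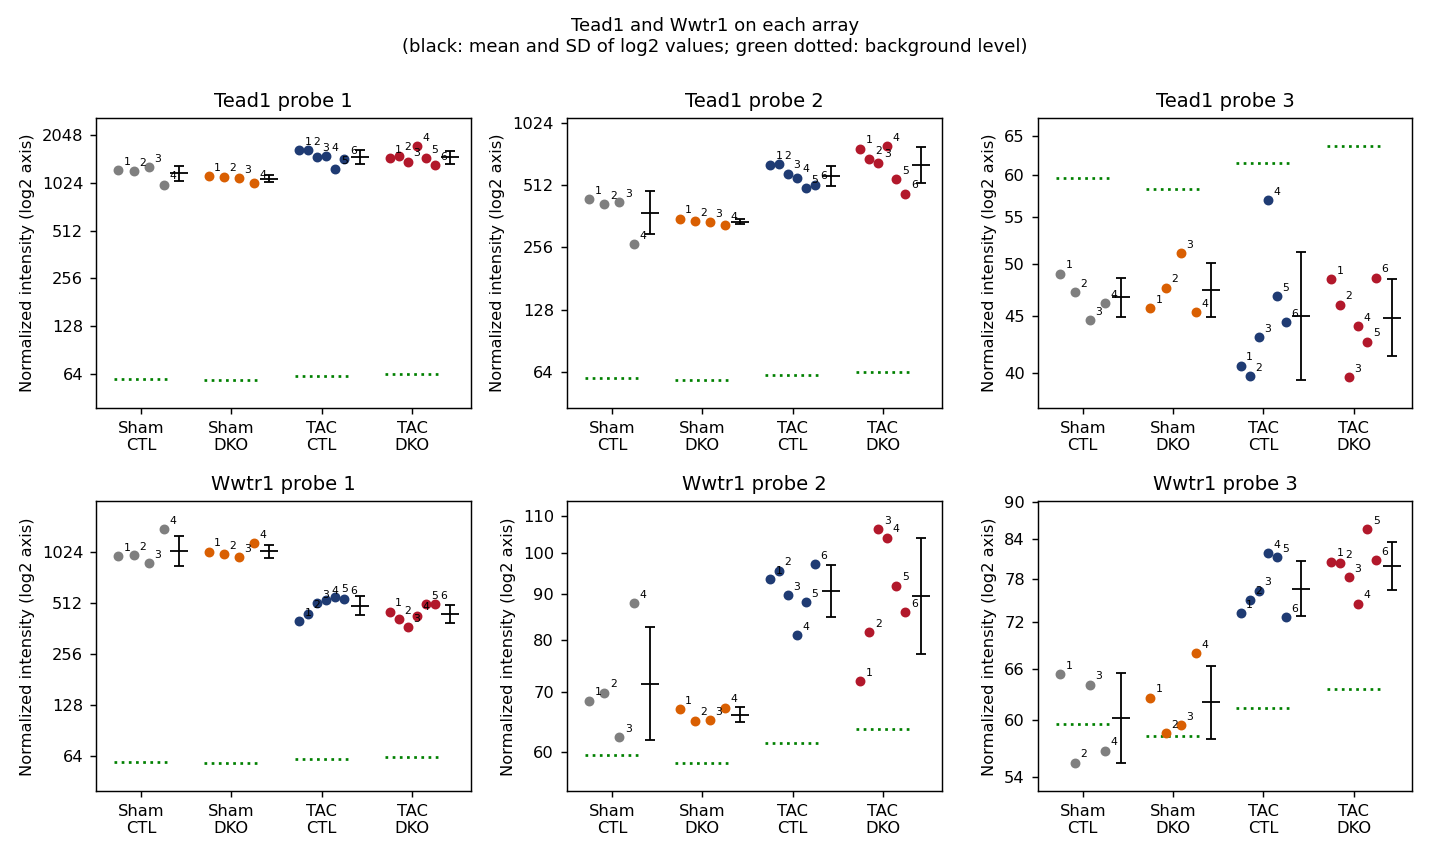
Normalized intensity (log2 axis) of the 3 probes of Tead1 and the 3 probes of Wwtr1 on each array, with points numbered by replicate, black bars for the mean and SD of the log2 values (n = 4 per sham group, n = 6 per TAC group) and green dotted lines for the mean background level. Tead1 probe 2 lies higher on the TAC arrays, Wwtr1 probe 1 lies lower on all 12 TAC arrays than on any of the 8 sham arrays, and Wwtr1 probe 3 lies higher on them.

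Over all 20 probes the counts of calls were small. In sham hearts 0 were called between genotypes by limma, and 0.102% of all probes were. At an unadjusted p under 0.05 there were 2, against 5.55% of all probes, namely Vgll2 probes 1 and 2, which were also the 2 whose arrays did not overlap, as was the case for 3.89% of all probes. The 17 probes of the other genes differed between genotypes by -0.20 to 0.08 in sham hearts, with 95% intervals within -0.46 to 0.33, and by -0.16 to 0.22 after TAC, within -0.37 to 0.46. After TAC 2 were called higher, both of Vgll2, against 0.144% of all probes called in either direction and 0.128% called higher, and 1 did not overlap, against 0.554%. Since the Vgll2 calls chose the set, these counts are a description.

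Between TAC and sham arrays the count in CTL hearts was 1 higher and 1 lower, with 5.17% of all probes called (1.76% higher and 3.4% lower) and 3 probes without overlap, against 16.1%. Another 3 probes were at an adjusted p under 0.05 with a smaller fold, where 22.0% of all probes were at such a p. In DKO hearts 2 were called higher and 1 lower, with 6.74% of all probes called (2.46% higher and 4.27% lower), and 6 did not overlap, against 20.5%. A further 6 were at an adjusted p under 0.05 with a smaller fold, against 28.0% of all probes at such a p. The median log2 difference over the 20 probes was 0.07 in CTL and 0.11 in DKO hearts, beside 0.01 and 0.02 over all probes. For the difference between both genotype effects 0 of the 20 probes were called by limma, 0 were at an unadjusted p under 0.05, where 4.71% of all probes were, and 0.00221% of all probes were called. The split of all calls moved with the scaling, from 798 higher and 1541 lower in CTL hearts to 186 and 3848 with median centring, and from 1116 and 1934 to 204 and 4166 in DKO hearts. The deposited values, used without further normalization, gave 901 and 1886, and 1494 and 2207, with a median shift of 0.30 between the sets.

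**Figure D4:**
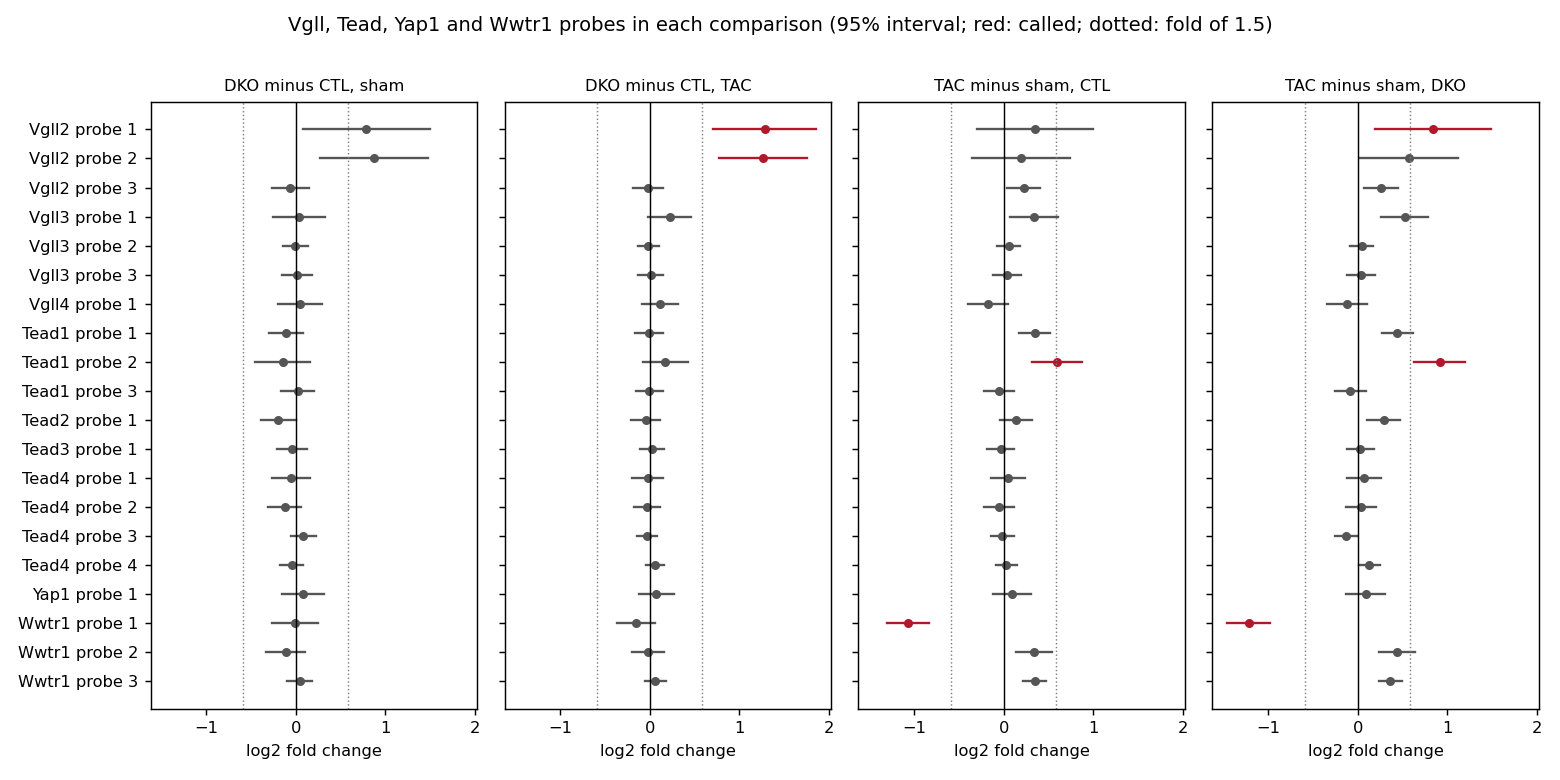
The log2 fold change of each of the 20 probes in DKO against CTL hearts after sham and after TAC, and in TAC against sham hearts of each genotype, with bars for the 95% interval, red for called probes and dotted lines at a fold of 1.5. Called probes are Vgll2 probes 1 and 2 in TAC DKO against TAC CTL hearts, Tead1 probe 2 (0.59 and 0.92) and Wwtr1 probe 1 (-1.07 and -1.22) in both TAC comparisons, and Vgll2 probe 1 (0.84) in DKO hearts.

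Among genes upstream of YAP1 and TAZ, the Hippo kinases and their regulators, only Dchs1 was called, in both comparisons of TAC with sham. Of 25 listed genes 24 were measured, and 0 were called between genotypes in sham or in TAC hearts, with 2 and 5 at an unadjusted p under 0.05 by limma, where 5.55% and 8.99% of all probes were. After TAC Dchs1, a protocadherin upstream of the kinases, rose in both genotypes, from 84.6 to 96.7 in sham CTL to 105.7 to 179.9 in TAC CTL hearts (log2 0.68, adjusted p = 3.66e-05) and from 82.0 to 89.9 in sham DKO to 121.8 to 144.1 in TAC DKO hearts (log2 0.64, adjusted p = 5.69e-05). With median centring both differences were under the fold threshold, at 0.36 and 0.33. The median TAC minus sham difference over the list was 0.12 in each genotype, and it was -0.09 in CTL and -0.07 in DKO hearts with median centring.

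Genes known as targets of YAP1 or TAZ with TEAD did not differ between genotypes beyond the threshold and went both ways after TAC. Of 22 listed genes 21 were measured, with 0 called between genotypes in sham hearts (2 at an unadjusted p under 0.05 by limma) and 0 after TAC (1 at an unadjusted p under 0.05). The shares of all probes at such a p were 5.55% and 8.99%. In CTL hearts TAC gave 3 higher and 1 lower, where 5.17% of all probes were called, and in DKO hearts 3 higher and 2 lower, where 6.74% were. The median over the list was -0.01 and -0.04. Of the 15 target genes with a promoter entry 6 held the MCAT core before a start, against 14.4% of all genes.

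The target that fell most was Ccn1 (also Cyr61), a matricellular protein gene, from 283.8 to 459.1 in sham CTL to 89.4 to 145.4 in TAC CTL hearts (log2 -1.72, SE 0.17, adjusted p = 7.71e-08) and from 296.4 to 463.1 to 89.6 to 174.3 in DKO hearts (log2 -1.62, adjusted p = 1.15e-07). Its relative Ccn2 (also Ctgf) rose, by 1.05 (SE 0.21, adjusted p = 0.000842) in CTL and 1.19 (adjusted p = 0.000165) in DKO hearts. Both genes are common readouts of YAP1 activity, and their differences had opposite signs under each scaling tried. Ccdc80, a matrix protein gene, rose by 1.01 and 0.84 (adjusted p = 0.000151 and 0.000796). Ankrd1, a cardiac stress gene, rose in CTL hearts by 0.61 (adjusted p = 0.00111), from 8252 to 9496 in sham to 10836 to 15762 in TAC hearts. In DKO hearts Ankrd1 was at 10760 to 15057 in sham and 8440 to 14923 in TAC hearts (log2 -0.02), and its difference between both genotype effects did not pass. Axl, a receptor tyrosine kinase gene, rose in DKO hearts by 0.69 (adjusted p = 1.49e-05), and in CTL hearts its difference was 0.52 (adjusted p = 0.000567), just under the fold threshold. Igfbp3, an IGF-binding protein gene named here because it was the other target called lower, fell in DKO hearts by 0.64 (adjusted p = 0.00742), and in CTL hearts its difference was -0.58 (adjusted p = 0.0189), under the fold threshold. Neither Axl nor Igfbp3 differed in its TAC effect between genotypes beyond the threshold (adjusted p = 0.940 and 0.984). With median centring Ccdc80, Ankrd1 and Axl lost their calls, as did Ccn2 in CTL hearts, and all kept their sign.

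Muscle genes with known MCAT elements held the largest rise among the listed genes. Of 8 listed genes 6 were measured, 0 were called between genotypes (1 at an unadjusted p under 0.05 in sham and 0 after TAC, by limma), and 3 were called higher and 0 lower after TAC in each genotype. Over all probes 5.55% and 8.99% were at such a p between genotypes, and 5.17% in CTL and 6.74% in DKO hearts were called after TAC. Acta1, skeletal alpha-actin and a gene of the fetal heart, rose from 2735 to 5840 to 16180 to 22131 in CTL (log2 2.26, SE 0.29, adjusted p = 3.16e-06) and from 2002 to 10279 to 10760 to 22438 in DKO hearts (log2 1.80, adjusted p = 3.76e-05). Myh7, the beta-myosin heavy chain, rose by 1.04 (adjusted p = 0.0321) and 1.05 (adjusted p = 0.0249). Nppb, the natriuretic peptide B gene, rose in CTL hearts by 0.80 (adjusted p = 0.00505), and in DKO hearts its difference was 0.48 (adjusted p = 0.0819). Acta2, smooth muscle actin, rose in DKO hearts by 0.99 (adjusted p = 0.00202), and in CTL hearts its difference was 0.38 (adjusted p = 0.271). The TAC effects of Nppb and Acta2 did not differ between genotypes beyond the threshold (adjusted p = 0.942 and 0.939). The median over the list was 0.59 in CTL and 0.73 in DKO hearts, and with median centring 0.17 and 0.32, where Acta1 alone of these genes kept its calls.

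Cell type markers moved with TAC on the same arrays. Over all probes 5.17% were called in CTL and 6.74% in DKO hearts. Of 8 cardiomyocyte markers 3 were called lower and 1 higher in each genotype, and their mean log2 level relative to all arrays was 0.16 to 0.42 in sham CTL, 0.19 to 0.27 in sham DKO, -0.45 to 0.10 in TAC CTL and -0.38 to 0.02 in TAC DKO hearts. Of 7 smooth muscle and pericyte markers, Acta2 among them, 2 were called higher in CTL and 4 in DKO hearts, with mean levels of -0.28 to -0.10, -0.46 to -0.30, -0.04 to 0.37 and -0.05 to 0.38 in the same order of groups. All 3 red blood cell markers measured were called higher in each genotype, with mean levels of -1.05 to -0.26, -0.72 to 0.12, -0.03 to 0.52 and 0.12 to 0.83. Of 7 atrial markers 2 were called higher in CTL and 3 in DKO hearts. Of 8 fibroblast markers 2 were called higher in CTL and 3 in DKO hearts, and 1 was called lower in each genotype. Of 8 endothelial markers 0 were called in CTL and 1 was called higher in DKO hearts. Of 5 leukocyte markers 0 were called in CTL and 1 was called lower in DKO hearts. The part of these shifts in the TAC differences of Tead1, Wwtr1, the targets and the muscle genes was not tested.

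**Figure D5:**
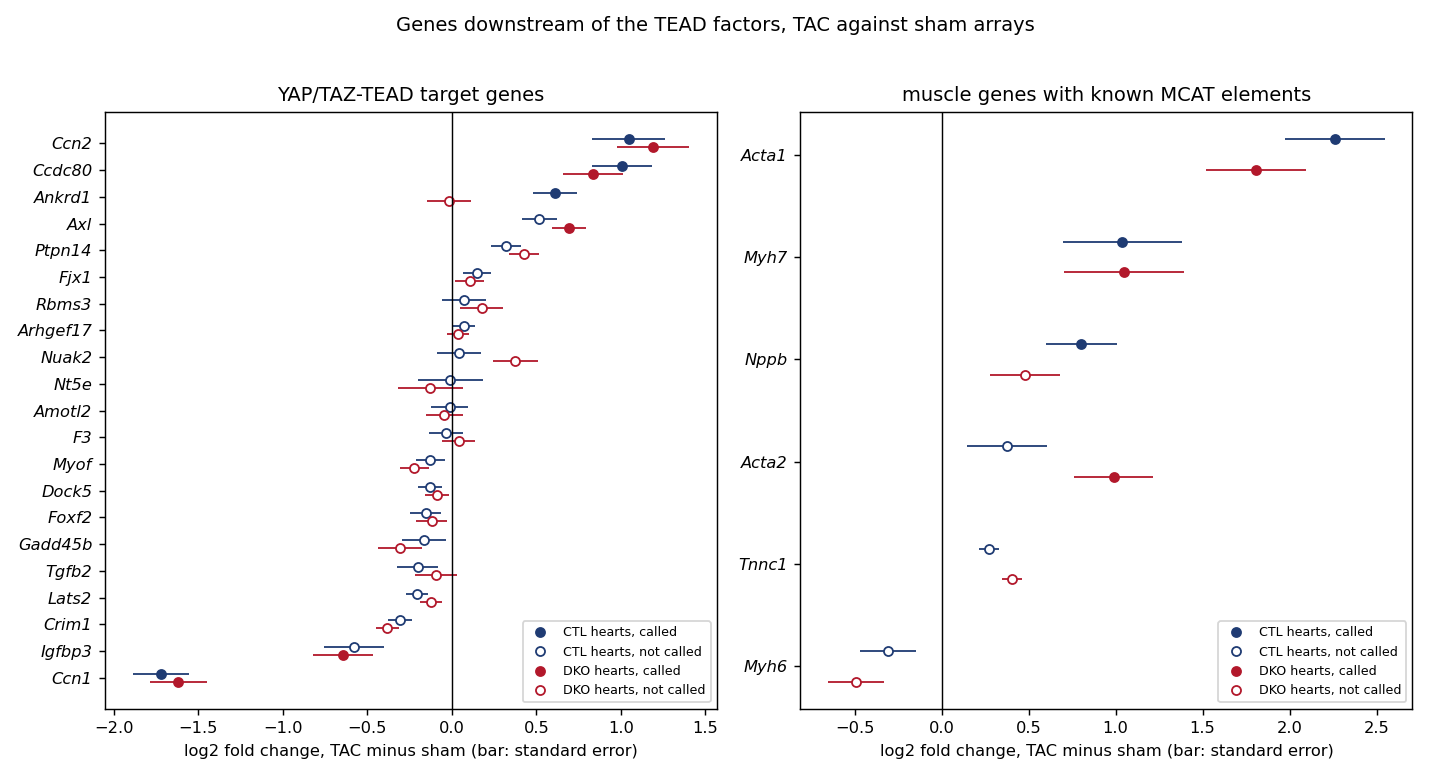
The log2 fold change, TAC minus sham, of 21 target genes of YAP1 or TAZ with TEAD (left) and 6 muscle genes with known MCAT elements (right) in CTL (blue) and DKO hearts (red), with bars for the standard error and filled points for called genes. Ccn1 lies lowest, at -1.72 and -1.62, Ccn2 highest among the targets, at 1.05 and 1.19, and Acta1 reaches 2.26 and 1.80 among the muscle genes.

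Skeletal muscle genes were listed because VGLL2 is known from that tissue. The lists were also chosen with earlier results of these data known, so their counts are a description. Of 10 slow muscle genes 9 were measured, and 1 was called between genotypes in sham and in TAC hearts, Tnnt1, slow skeletal troponin T. Over all probes 0.102% were called between genotypes in sham hearts and 0.144% after TAC. Tnnt1 lay at 506.7 to 688.1 in sham CTL and 1207 to 1700 in sham DKO hearts (log2 1.26, SE 0.19, adjusted p = 0.00174), and at 465.9 to 676.4 and 1167 to 2804 after TAC (log2 1.58, SE 0.15, adjusted p = 1.75e-06), without overlap between genotypes, and was called in all 29 alternative settings with a fold threshold. After TAC Myh7 rose in both genotypes as given above, and Myoz2, a calcineurin-binding protein of the Z-disc, fell in DKO hearts by 0.76 (adjusted p = 4.90e-05), with a difference of -0.50 (adjusted p = 0.00444) in CTL hearts, under the fold threshold. Of 15 fast muscle genes 14 were measured, and 0 were called between genotypes (3 in sham and 1 after TAC at an unadjusted p under 0.05, by limma, where 5.55% and 8.99% of all probes were). After TAC in CTL hearts Mybpc2, fast myosin-binding protein C, rose by 1.06 (adjusted p = 0.00171) and Myh8, the perinatal myosin heavy chain, fell by 0.59 (adjusted p = 0.00310), a call that held in 21 of 29 alternative settings. In DKO hearts the difference of Mybpc2 was 0.44 (adjusted p = 0.178) and that of Myh8 -0.53 (adjusted p = 0.00555), under the fold threshold. The TAC effects of Myoz2, Mybpc2 and Myh8 did not differ between genotypes beyond the threshold (adjusted p = 0.939, 0.939 and 0.982). The median over the fast list in that comparison was -0.58, and 0.00 without sham CTL array 2, the array with the high skeletal muscle markers.

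Of 13 regulators of myogenesis 11 were measured. Eya1, a transcriptional coactivator of muscle development, was called higher in sham DKO hearts, at 88.6 to 99.5 against 45.6 to 78.0 in sham CTL hearts (log2 0.65, SE 0.12, adjusted p = 0.0275), with 3 of 4 sham CTL arrays above background, and this call was lost in 10 of 29 alternative settings. Its difference after TAC was 0.28 (adjusted p = 0.415), with all 6 TAC CTL arrays under background, and from sham to TAC it fell in DKO hearts by 0.66 (adjusted p = 0.000109), to a level above background on 2 of 6 arrays. No other regulator was called between genotypes, with 2 in sham and 3 after TAC at an unadjusted p under 0.05 by limma, Eya1 included, where 5.55% and 8.99% of all probes were. Mef2c, a muscle transcription factor, rose after TAC in DKO hearts by 0.66 (adjusted p = 0.00408), a value of 0.17 with median centring. Its difference in CTL hearts was 0.23 (adjusted p = 0.366) and that of Eya1 -0.28 (adjusted p = 0.0869), and neither TAC effect differed between genotypes beyond the threshold (adjusted p = 0.939 each).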

How the data were processed

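RNA of 20 ventricles was hybridised to Illumina bead arrays, and per the labels the authors processed them in GenomeStudio V2010.3. The deposited values are linear intensities of 45281 probes, of which 34885 name 1 gene, 18 several and 10378 none, covering 19057 genes. Within each set the sorted values of every pair of arrays were nearly all equal within 0.2%. The share was at least 97.6% of the values among the 8 sham and 99.9% among the 12 TAC arrays. The authors had therefore quantile normalized both sets apart, and the background step is not given in the sources used here. Groups came from the sample labels. No label ties arrays to shared litters or days.

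Intensities were log2 transformed with no constant, quantile normalized over 20 arrays and fitted with limma 3.58.1 in R 4.3.3, with 4 group means and 16 residual and 6.64 prior degrees of freedom. Calls required an adjusted p under 0.05 (Benjamini-Hochberg, over all probes) together with a fold over 1.5. Values are normalized intensities, and log2 differences are those of log2 means. The fit was tested on simulated data. The number of arrays limits the precision. For lists the probe with the highest mean stood for a gene.

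The 9 genes, the 6 pathway lists and 8 marker lists were chosen with earlier results of these data known. Text names every probe of the 9 genes, up to 4 called genes per list and comparison with the largest change, the 5 genes and 3 cofactors most correlated with the brightest Vgll2 probe, Dnmt3a and Dnmt3b, and markers on which a result turns. No set test was run. Alternatives were deposited values, median centring, 50 added, 1 fit per comparison, intensity trend, array weights, brighter probes only, no fold threshold, a replicate block, the mean of all probes, and leaving out arrays.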

Additional observations from a re-analysis of the deposited data

Results flagged for a closer look

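Among 80 groups of arrays tested (20 probes in 4 groups), 4 held an array far from the others, and chance alone marks about 1 in 20 groups, which is 4. Tead1 probe 2 was at 266.0 on sham CTL array 4, with the next array at 413.7, and without this array the Tead1 call in CTL hearts was lost. Tead2 was at 144.1 on TAC CTL array 1, with the next at 121.9. Tead4 probe 1 was at 51.9 on sham DKO array 2, with the next at 59.2, and at 50.5 on TAC CTL array 1, with the next at 61.6.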

How the results depend on the processing

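Of 4207 recomputed values, counts and medians included, 44 lost a call, 15 gained one, 0 reversed a called direction, 99 moved beyond the tolerance set for them and 4049 did none of these. Of 2950 differences of single probes, 131 that had not been called turned their sign. In sham hearts the count of called Vgll, Tead and Yap probes was 0 in all alternatives, and for the difference of the genotype effects likewise. Against 2 called after TAC between genotypes, the deposited values and median centring gave 1 each, and 50 added to the intensities and a fit on those groups alone gave 0 each. Leaving out single arrays gave 1 to 2. Vgll2 probe 1 lost this call in 18 of 30 alternatives (adjusted p 0.00530 to 0.144, log2 0.87 to 1.66) and probe 2 in 2 (adjusted p 0.000665 to 0.0606, log2 0.82 to 1.62), and the cause was not tested. For TAC in CTL hearts, with 2 called, the deposited values, median centring, 50 added and array weights gave 1 each, no fold threshold gave 5, and single arrays left out gave 1 to 2. For TAC in DKO hearts, with 3 called, median centring gave 1 and no fold threshold 9, and Vgll2 probe 1 lost its call there in 16 of 30 alternatives.

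Of the listed pathway genes 2 were called in sham hearts, and 1 was with 50 added, a fit on the sham groups alone, array weights or the mean of all probes, while leaving out single arrays gave 1 to 3 (3 without sham CTL array 2). After TAC between genotypes 1 was called, 2 in a fit on those groups alone, and 1 to 2 without single arrays (2 without sham CTL array 2). For TAC in CTL hearts 10 were called and 23 without a fold threshold, and in DKO hearts 12, 30 without a fold threshold and 5 with the mean of all probes, and the cause of the last was not tested. The log2 difference of Vgll2 probe 1 in sham hearts ran from 0.45 to 0.93 and that of probe 2 from 0.51 to 1.04, never called.

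The labels do not say whether equal replicate numbers pair arrays. Over 26 same-numbered pairs the deviations from the group means correlated with -0.24 to 0.48, and 8 were over 0.1. Between TAC CTL and TAC DKO arrays 4 of the 6 pairs were over 0.1. Pairs with unlike numbers were not compared, so these values do not settle whether the numbers carry a shared structure. With the number as a replicate block the counts were 0 in sham hearts, 2 after TAC, 2 and 4 for TAC in CTL and DKO hearts and 0 for the interaction, and 2, 1, 12, 15 and 0 for the listed genes. Keeping only probes above the median brightness tested fewer of the 20 probes, and no fit on 2 groups alone exists for the interaction.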
